A study of Mus musculus with 3 samples.

Results

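The genes described here encode isoforms of 4 glycolytic enzymes, meaning proteins that catalyse the same step of sugar breakdown but are made from separate genes. The 10 genes were taken by symbol from the 31053 genes of the feature table, as follows. Hexokinase was represented by *Hk1*, *Hk2* and *Hk3*, phosphofructokinase by *Pfkl*, *Pfkm* and *Pfkp*, aldolase by *Aldoa* and *Aldoc*, and lactate dehydrogenase by *Ldha* and *Ldhb*. The rule used symbols and not levels, but the list was drawn up with earlier results of these data known. Gene positions below are those of the GENCODE annotation of GRCm38.

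Glycolysis converts glucose to pyruvate in the cytosol. Hexokinase traps glucose in the cell by phosphorylating it, phosphofructokinase commits the sugar to breakdown, aldolase splits it into a pair of triose phosphates, and lactate dehydrogenase interconverts pyruvate and lactate. Naïve T cells use glucose sparingly, and activated T cells take up more of it and release lactate even when oxygen is present. Isoforms differ in where they sit and how they are regulated. HK1 and HK2 can bind to mitochondria, the liver, muscle and platelet types of phosphofructokinase (*Pfkl*, *Pfkm*, *Pfkp*) assemble into mixed tetramers, and the A and B subunits of lactate dehydrogenase do the same.

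The study sequenced RNA of single CD4+ T cells from the spleens of C57BL/6 mice, enriched for naïve cells and sorted as 7-AAD-negative, CD3+ and CD4+. *Ift20* f/f mice without Cre served as wild type (WT), and *Ift20* f/f CD4 cre mice, in which the *Cd4* promoter drives Cre, as IFT20-KO, so all mice carried the floxed allele of *Ift20*, a gene for an intraflagellar transport protein. One WT library held unstimulated cells, labelled 0 h. Another held WT cells cultured for 24 h with anti-CD3 and anti-CD28 antibodies at 1 μg/mL each, and the last held IFT20-KO cells cultured in the same way. No library held cells cultured for 24 h without antibodies. In every stimulation difference below, time in culture therefore cannot be told apart from the antibodies. The number of mice behind a library was not given in the sources used here, unstimulated IFT20-KO cells were not analysed here, and the *Cd4* promoter is active from the thymus on, so Cre acted in these cells before they matured.

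Each group was 1 library, so no value below has a replicate, no test was made, and whatever else differed between libraries cannot be told apart from group. Levels are counts of unique molecular identifiers (UMIs, a tag on each RNA molecule that was caught) per 1000000 UMIs of a library (CPM), and every interval is a 95% interval for counting error only. After removal of barcodes with 200 or fewer genes or with 15% or more mitochondrial UMIs, 8031, 9903 and 13920 cells remained in the unstimulated WT library, the stimulated WT library and the stimulated IFT20-KO library, with 37133949, 116979076 and 106435143 UMIs. Median UMIs per cell were 4627, 12167 and 5014.5. Between 125 and 207 barcodes occurred in both libraries of a pair. All 5 T cell markers were detected in every library, with a summed level of 2786 to 3458 CPM. *S100a8* and *S100a9* were at 0 in every library, and the B cell and myeloid lists were almost wholly *Ighm* (143 to 283 CPM) and *Cst3* (76.3 to 80.3 CPM). *Ift20* itself was at 64.4, 76.0 and 6.60 CPM, which put the IFT20-KO library 3.52 log2 units below stimulated WT (interval -3.64 to -3.41). The deletion removes part of the gene, so counts from the rest of it can remain.

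Because the results below turn on the lactate dehydrogenase pair and on *Hk2*, the 250 bases before the RefSeq transcription start of *Ldha* (its first listed start, chr7:46845554-46845803, plus strand), *Ldhb* (chr6:142507958-142508207, minus strand) and *Hk2* (chr6:82774455-82774704, minus strand) are printed here 5′ to 3′ from the GRCm38.p6 promoter table. Capitals mark CACGTG, the E-box bound by MYC and other factors, and ACGTG (or CACGT on the other strand), the core of the hypoxia response element, which also lies within every CACGTG.
Ldha: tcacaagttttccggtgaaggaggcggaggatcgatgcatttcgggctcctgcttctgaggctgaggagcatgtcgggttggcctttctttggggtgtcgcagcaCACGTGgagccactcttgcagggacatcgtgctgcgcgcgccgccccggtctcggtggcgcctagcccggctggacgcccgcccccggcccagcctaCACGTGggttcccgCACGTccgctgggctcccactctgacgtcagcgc
Ldhb: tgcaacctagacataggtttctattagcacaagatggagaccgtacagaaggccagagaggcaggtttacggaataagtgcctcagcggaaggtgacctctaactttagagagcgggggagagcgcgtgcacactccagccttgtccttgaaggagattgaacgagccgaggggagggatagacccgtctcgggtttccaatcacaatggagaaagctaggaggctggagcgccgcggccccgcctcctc
Hk2: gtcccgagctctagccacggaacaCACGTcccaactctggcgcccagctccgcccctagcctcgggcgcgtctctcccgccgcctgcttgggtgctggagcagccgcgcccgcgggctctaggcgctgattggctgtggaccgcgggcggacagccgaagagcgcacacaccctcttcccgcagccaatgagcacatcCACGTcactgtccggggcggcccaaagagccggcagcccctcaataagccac
The *Ldha* sequence held 2 copies of CACGTG, at 145 and 48 bases before the start, and a further ACGTG, whereas the *Ldhb* sequence held none of these letters. The *Hk2* sequence held 2 copies of ACGTG and no CACGTG. All 10 genes were found in the table, with 18 starts, and their windows of 250 bases before to 50 after the start held CACGTG in 2 (*Ldha* and *Pfkm*) and ACGTG in 9. The window of the other listed *Ldha* start held neither. Among the 9 windows with ACGTG, 2 of *Aldoa* overlapped and held the same site. Over all 32851 promoters of that length, 7.15% held CACGTG and 19.6% held ACGTG on either strand. A match describes the letters only, and no binding was measured.

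The enzymes differed widely in level, and each had 1 or 2 isoforms that made up nearly all of its UMIs. In unstimulated WT cells the order was *Ldha* (728 CPM), *Aldoa* (458), *Hk1* (63.7), *Pfkl* (48.7), *Pfkp* (47.9), *Ldhb* (36.9), *Pfkm* (6.19), *Aldoc* (1.48), *Hk2* (0.162) and *Hk3* (0.135). The counting intervals of *Pfkl* and *Pfkp* overlapped, as did those of *Hk2* and *Hk3*, and all other neighbours in this order were apart. A UMI counts the end of a molecule once, so these levels were not divided by transcript length. *Aldoa* and *Ldha* have near-identical pseudogene copies in the mouse genome to which their reads could also map, so their levels are less certain than those of the other genes.

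**Figure D1:**
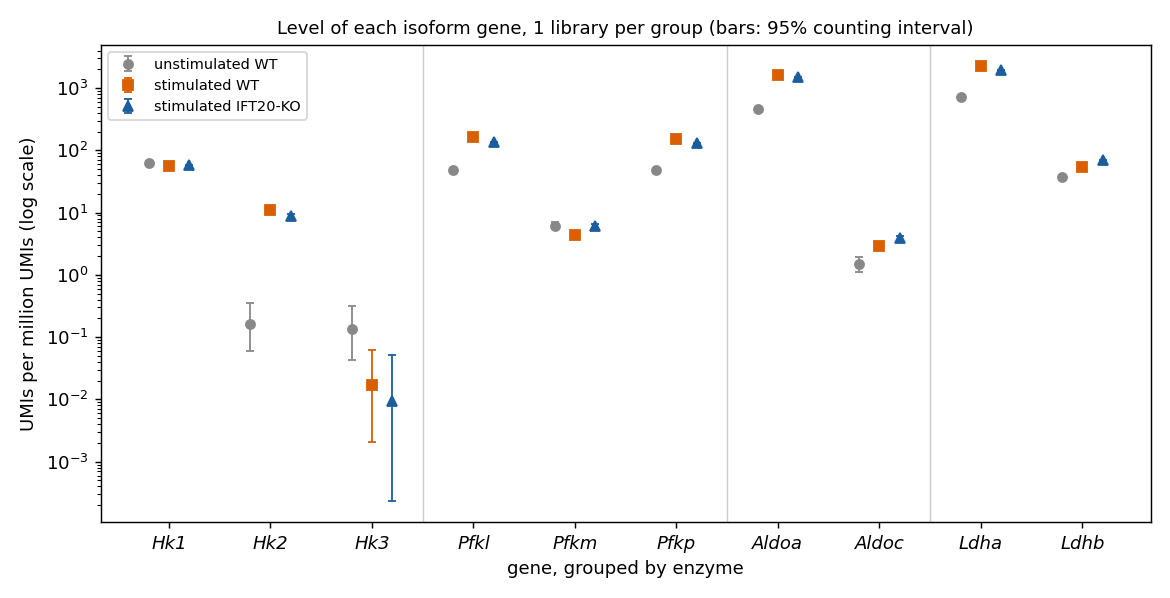
Level of each of the 10 genes in CPM (log scale) in unstimulated WT (grey circles), stimulated WT (orange squares) and stimulated IFT20-KO cells (blue triangles), with 95% counting intervals and genes grouped by enzyme. *Ldha* and *Aldoa* lie highest in every library, *Hk2* lies at 0.162 CPM in unstimulated and 11.2 CPM in stimulated WT, and *Hk3* stays at 5 UMIs or fewer.

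After stimulation, 5 of the 9 genes with at least 10 UMIs over both WT libraries were higher by 2-fold or more (*Hk2*, *Pfkl*, *Pfkp*, *Aldoa* and *Ldha*), where 19.3% of the 13297 genes of all kinds were. None of the 9 was lower by that much, against 23.0% of all genes. The median log2 ratio of the 9 was 1.61 and that of all genes -0.089. *Hk3* was the 1 gene under 10 UMIs and got no ratio.

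In the stimulated IFT20-KO library, 3 of the 9 genes were at least 1.2-fold above stimulated WT (*Pfkm*, *Aldoc* and *Ldhb*), where 35.9% of 13504 genes were. A further 2 were lower by at least 1.2-fold (*Hk2* and *Pfkl*), against 7.75% of all genes. These counts depended on scaling and depth. With median-ratio scaling 2 were higher (*Pfkm* and *Aldoc*) and 5 lower (*Hk2*, *Pfkl*, *Pfkp*, *Ldha* and *Aldoa*, at log2 ratios of -0.49 to -0.28), and *Ldhb* was at 0.22. With cells thinned to 1400 UMIs 2 were higher (*Aldoc* and *Ldhb*) and 2 lower (*Pfkl* and *Ldha*). *Hk2*, seen in 139 stimulated WT and 182 IFT20-KO thinned cells, was at -0.16. The median of all genes was -0.024 with median-ratio scaling and 0.16 in thinned cells. Counts of all genes with median-ratio scaling are given in the closing section, and none is given for thinned cells. In UMIs per cell with no scaling 0 were higher and 6 lower, where 728 of the 13504 genes were higher and 9937 lower. In CPM over all cells, the median of the 9 log2 ratios was -0.12 and that of all genes 0.14. A gene at a ratio of 0 thus lay below the typical gene of this comparison. Relative to the median gene, *Hk2* was at -0.46, *Pfkl* at -0.42, *Pfkp* at -0.37, *Ldha* at -0.34, *Aldoa* at -0.26 and *Hk1* at -0.11 on the log2 scale, while *Ldhb*, *Aldoc* and *Pfkm* were at 0.24, 0.30 and 0.38. Both comparisons use the stimulated WT library, so an error in it would push their ratios in opposite directions.

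**Figure D2:**
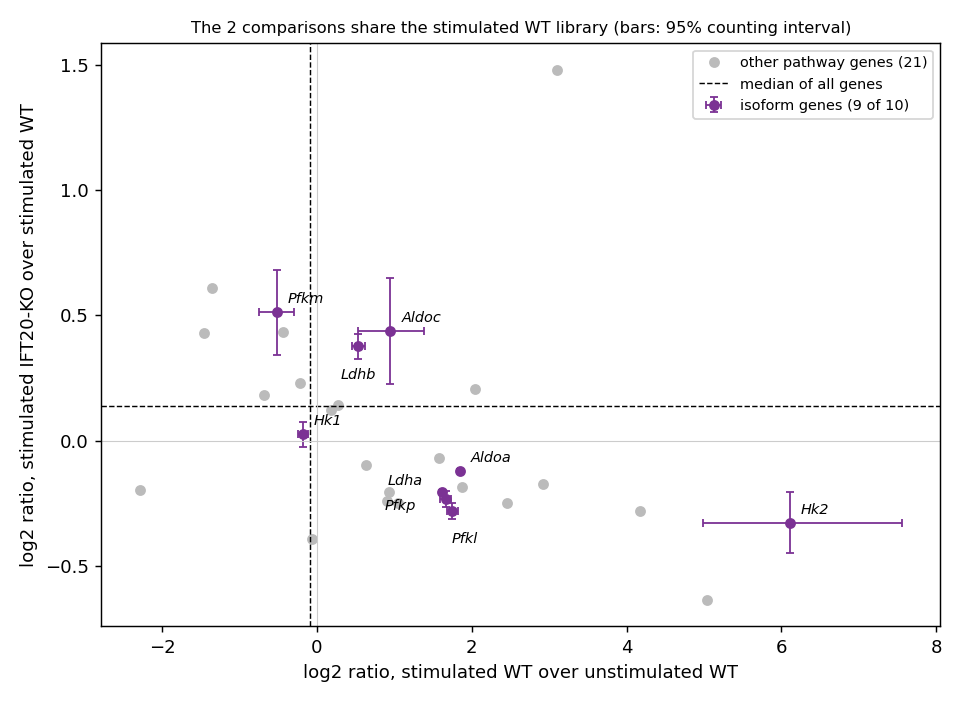
Log2 ratio of CPM for stimulated over unstimulated WT (horizontal) and stimulated IFT20-KO over stimulated WT (vertical), for the 9 isoform genes with at least 10 UMIs in each comparison (purple, with 95% counting intervals) and 21 other genes of the pathway (grey). Dashed lines mark the medians of all genes, -0.089 and 0.14. *Hk2* lies far to the right at 6.11, the dominant isoforms of the later enzymes lie near 1.61 to 1.85 and below the horizontal dashed line, and *Pfkm*, *Aldoc* and *Ldhb* lie above it.

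Hexokinase had nearly the same summed level in CPM in the 3 libraries, but 1 isoform before stimulation and a pair after it. *Hk1* (chr10:62268855-62379908), the isoform found in most tissues, was at 63.7, 56.2 and 57.2 CPM before stimulation, after it in WT and after it in the knockout. Its log2 ratio was -0.18 with stimulation (interval -0.25 to -0.11) and 0.024 in the knockout (-0.026 to 0.075). In CPM the level was thus a little lower after stimulation and indistinguishable between genotypes at this depth. Relative to the median gene the ratios were -0.091 and -0.11, and with median-ratio scaling -0.046 and -0.14, so both readings depended on scaling. *Hk2* (chr6:82725025-82774454), the isoform known to be induced in growing cells and by insulin in muscle, was seen in 6 UMIs of the unstimulated library and in 1306 and 947 UMIs of the stimulated WT and IFT20-KO libraries. These counts stand for 0.162, 11.2 and 8.90 CPM. The stimulated WT level was 69.1-fold above the unstimulated one, with an interval of 31.7 to 189, and the knockout level was lower than stimulated WT by a log2 ratio of -0.33 (-0.45 to -0.21). *Hk3* (chr13:55005985-55021385), known mostly from myeloid cells, gave 5, 2 and 1 UMIs. Of the cells that held them, 1 in each library also held a UMI of the myeloid list, as did 29.5%, 53.4% and 39.7% of the other cells. That list was almost wholly *Cst3*, so these rates cannot show whether the *Hk3* cells were myeloid. At least 5 UMIs of the list were held by 0 *Hk3* cells and by 0.037%, 0.76% and 0.39% of the other cells. Summed over the 3 genes, hexokinase was at 64.0, 67.4 and 66.1 CPM. In UMIs per cell, which leaves depth in, it was at 0.296, 0.797 and 0.506.

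*Hk2* made up 0.253% of hexokinase UMIs without stimulation, 16.6% in stimulated WT and 13.5% in stimulated IFT20-KO cells. The share was 16.3 percentage points higher in stimulated than in unstimulated WT (interval 15.4 to 17.2) and was 3.1 points lower in the knockout (-4.24 to -1.95). In counts of molecules, there were 394 *Hk1* UMIs per *Hk2* UMI before stimulation and 5.04 after it in WT, against 6.43 in the knockout. In cells of 5000 to 10000 UMIs, with median depths of 5794.5, 8566 and 8398 UMIs, the *Hk2* share was 0.177% (2 UMIs), 10.6% and 9.20%, and the knockout difference of -1.42 points had an interval of -4.42 to 1.41 that included 0.

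Phosphofructokinase, by contrast, was 3.11-fold higher in summed level after stimulation and, over all cells, kept an even balance of its liver and platelet types. *Pfkl* (chr10:77986947-78010083) was at 48.7, 163 and 134 CPM in the 3 libraries, in the order given at the start. *Pfkp* (chr13:6579768-6648777) was at 47.9, 152 and 129 CPM in the same order. These are log2 ratios of 1.75 and 1.67 with stimulation, and of -0.28 and -0.23 in the knockout. *Pfkm* (chr15:98092589-98132451), the muscle type, went the other way at a far lower level, with 6.19, 4.32 and 6.15 CPM and log2 ratios of -0.52 (interval -0.75 to -0.29) and 0.51 (0.34 to 0.68). With cells thinned to 1400 UMIs the knockout ratio of *Pfkm* was 0.024, short of 1.2-fold. Only 67 stimulated WT and 100 IFT20-KO thinned cells held *Pfkm*, and that ratio is given without an interval. The stimulated WT level of *Pfkm* over all cells was the lowest of the 3, and the unstimulated WT and stimulated IFT20-KO intervals overlapped.

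There were 1.02, 1.07 and 1.04 *Pfkl* UMIs per *Pfkp* UMI in the 3 libraries. As shares of phosphofructokinase, *Pfkl* made up 47.3%, 51.1% and 49.8%, *Pfkp* 46.6%, 47.6% and 47.9%, and *Pfkm* 6.03%, 1.35% and 2.28%. The *Pfkl* share was 3.72 points higher after stimulation (2.06 to 5.38) and 1.27 points lower in the knockout (-2.04 to -0.50), but neither direction was stable. With every cell thinned to 1400 UMIs the first difference was -0.99 points, and in cells with under 5000 UMIs it was -8.77 points (-12.0 to -5.48). That class was not matched between the WT libraries. It held 60.9% of unstimulated and 24.1% of stimulated WT cells. Their median UMIs were 3898 and 1853, and their median mitochondrial shares 2.44% and 10.2%. In cells of 5000 to 10000 UMIs the knockout difference of *Pfkl* was 1.67 points (-0.83 to 4.17). The *Pfkp* share over all cells differed by 0.953 (-0.711 to 2.61) and 0.343 points (-0.424 to 1.11), both with intervals that included 0. It was not stable with depth either. In cells with under 5000 UMIs it was 13.9 points higher after stimulation (10.6 to 17.1), while in cells with at least 5000 UMIs it was 1.02 points lower in the knockout (-1.83 to -0.196). Over all cells, the lower *Pfkm* share of stimulated WT cells, by 4.68 points (-5.48 to -3.95), was far outside counting error. So was the higher one of the knockout, by 0.929 points (0.723 to 1.14). That knockout difference was 1.02 points (0.801 to 1.26) in cells with at least 5000 UMIs. In cells with under 5000 UMIs it was 0.322 points (-0.469 to 0.964), an interval that included 0.

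Aldolase was nearly all *Aldoa*, the isoform of muscle and most growing cells. *Aldoa* (chr7:126795234-126800751) had levels of 458, 1650.6 and 1517 CPM and a log2 ratio of 1.85 with stimulation (1.83 to 1.87) and -0.12 in the knockout (-0.13 to -0.11). *Aldoc* (chr11:78322968-78327781), best known from brain, was at 1.48, 2.86 and 3.88 CPM from 55, 335 and 413 UMIs. It was thus higher after stimulation (log2 ratio 0.95, interval 0.54 to 1.39) and higher again in the knockout (0.44, interval 0.23 to 0.65). With cells thinned to 1400 UMIs the stimulation ratio was 0.26, given without an interval. Only 20 unstimulated and 33 stimulated WT thinned cells held *Aldoc*. Since *Aldoa* was 3.60-fold higher with stimulation and *Aldoc* 1.93-fold, the *Aldoc* share was 0.322%, 0.173% and 0.255% in the 3 libraries. A second entry of the feature table bears the symbol *Aldoa* (ENSMUSG00000114515, beside the main ENSMUSG00000030695). It held 0, 22 and 41 UMIs and was not counted.

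Lactate dehydrogenase was mostly *Ldha*, but *Ldhb* differed between libraries in another way than its partner. *Ldha* (chr7:46841475-46855627), whose A subunit is known for turning pyruvate into lactate, was at 728, 2228 and 1932 CPM, 3.06-fold higher after stimulation and then lower in the knockout by a log2 ratio of -0.21 (-0.21 to -0.20). *Ldhb* (chr6:142490249-142507957), whose B subunit is abundant in heart and is associated with lactate use, was at 36.9, 53.5 and 69.4 CPM. Its log2 ratios were 0.54 (0.45 to 0.62) and 0.38 (0.33 to 0.42), so over all cells *Ldhb* was highest in stimulated IFT20-KO, where *Ldha* was between its other levels. In cells with under 5000 UMIs, a class not matched in depth between the WT libraries, the stimulation ratio of *Ldhb* turned to -0.27 (-0.53 to -0.025). That of *Ldha* there was 0.60 (0.55 to 0.65). The median stimulation ratio of all genes in this class was 0.47, so relative to the median gene *Ldha* was at only 0.13 and *Ldhb* at -0.74. The ratio of *Ldha* to *Ldhb* UMIs was 19.7 in unstimulated WT, 41.7 in stimulated WT and 27.9 in stimulated IFT20-KO cells.

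*Ldhb* accordingly made up 4.82%, 2.34% and 3.47% of lactate dehydrogenase UMIs, a difference of -2.48 points with stimulation (-2.74 to -2.23) and a difference of 1.12 points in the knockout (1.03 to 1.22). The knockout difference was between 1.09 and 1.40 points under the 8 other settings tried, and 0.841 points (0.285 to 1.35) in cells with under 5000 UMIs. The stimulation difference was only -0.871 points (-1.30 to -0.448) in cells of 5000 to 10000 UMIs, where *Ldhb* made up 4.24% of lactate dehydrogenase in unstimulated and 3.37% in stimulated WT cells. This band was not fully matched in depth either, with median UMIs of 5794.5 and 8566. It held 36.9% of unstimulated but 12.7% of stimulated WT cells. In that band its share was highest in IFT20-KO cells, at 4.78%.

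**Figure D3:**
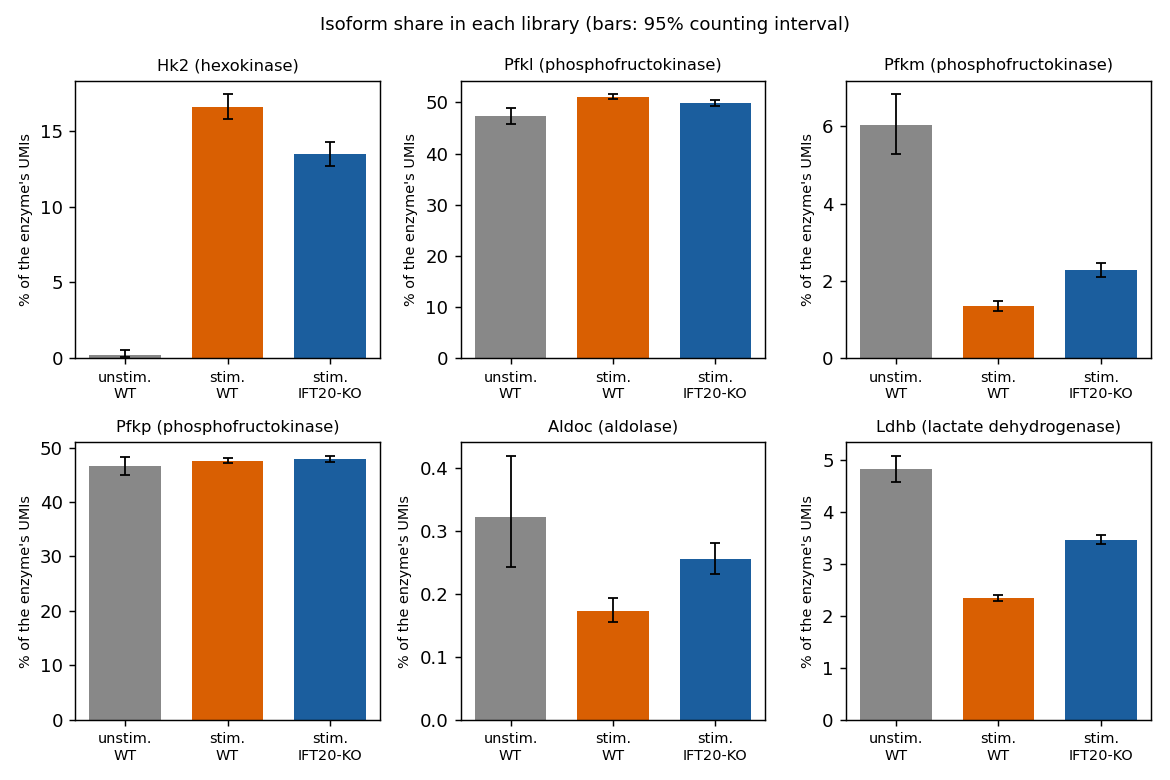
Share of an enzyme's UMIs given by *Hk2*, *Pfkl*, *Pfkm*, *Pfkp*, *Aldoc* and *Ldhb* in the 3 libraries, as bars from 0 with 95% counting intervals. The *Hk2* bar is at 0.253% in unstimulated WT and over 13% in both stimulated libraries, *Pfkl* and *Pfkp* stay between 46.6% and 51.1%, and the minor isoforms *Pfkm*, *Aldoc* and *Ldhb* are lowest in stimulated WT.

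Over all cells, the minor isoforms *Pfkm*, *Aldoc* and *Ldhb* thus shared a pattern in their shares, lowest in stimulated WT and in between in stimulated IFT20-KO. For *Hk2* that order was turned, with the highest share in stimulated WT. The in-between place was not stable with depth for *Ldhb* and *Aldoc*, while the *Pfkm* share was in between in each depth class. In cells of 5000 to 10000 UMIs the *Ldhb* share was highest in the knockout, at 4.78% against 4.24% in unstimulated WT. In cells with under 5000 UMIs the *Aldoc* share was highest in the knockout, at 0.353% (62 UMIs) against 0.268% (20 UMIs) in unstimulated WT. No interval is given for that difference. The *Aldoc* stimulation difference there had an interval that included 0 (-0.224 to 0.177). The lower minor shares after stimulation had different components, since *Pfkm* was lower in CPM, and *Aldoc* and *Ldhb* were higher but by less than the dominant isoform. Counted as UMIs per cell, which leaves depth in, *Pfkm* and *Ldhb* were at 0.0286 and 0.170 in unstimulated WT, 0.0510 and 0.632 in stimulated WT, and 0.0471 and 0.530 in IFT20-KO cells. *Pfkm*, *Aldoc* and *Ldhb* were therefore lower per cell in the knockout, at log2 ratios of -0.12, -0.19 and -0.25, where the median of all genes was -0.49. More RNA per cell and deeper sequencing of a library cannot be told apart in these counts.

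Depth differed between the stimulated libraries, and the knockout ratios differed with it. Cells with under 5000 UMIs made up 24.1% of stimulated WT and 49.99% of stimulated IFT20-KO cells and gave 4.09% and 16.7% of the UMIs. Their median mitochondrial share was 10.2% in WT and 5.60% in the knockout, against 1.26% and 1.07% in cells with at least 5000 UMIs. The lowest UMI count of a deposited barcode was 709 in stimulated WT and 1493 in IFT20-KO. Among cells with at least 5000 UMIs, the log2 ratio of *Ldha* in the knockout was -0.13 (-0.14 to -0.12) and that of *Aldoa* -0.053 (-0.063 to -0.043). Among cells with under 5000 UMIs both were positive, at 0.12 (0.079 to 0.17) and 0.22 (0.17 to 0.27). The ratio over all cells was thus lower than that within either class for both genes.

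The other genes with a ratio past counting error had like ratios of CPM in deep cells and over all cells. In cells with at least 5000 UMIs *Ldhb* was at 0.44 (0.39 to 0.49), *Pfkm* at 0.57 (0.39 to 0.74), *Aldoc* at 0.45 (0.23 to 0.67), *Pfkl* at -0.25 (-0.29 to -0.22), *Pfkp* at -0.29 (-0.32 to -0.25) and *Hk2* at -0.34 (-0.48 to -0.21). In cells with under 5000 UMIs *Ldhb* was at 0.48 (0.24 to 0.73) and *Hk2* at -0.66 (-1.05 to -0.25). The intervals of *Pfkm* (-0.67 to 0.66) and *Aldoc* (-0.13 to 2.08) there included 0 and were too wide to place them. The narrow band of 5000 to 10000 UMIs held 1253 WT and 2039 knockout cells. There *Ldhb* was at 0.47 (0.33 to 0.61), *Pfkm* at 0.61 (0.13 to 1.11), *Pfkp* at -0.18 (-0.29 to -0.075) and *Ldha* at -0.054 (-0.082 to -0.027). The intervals of the others included 0, with *Pfkl* at -0.044 (-0.15 to 0.059) and *Aldoa* at -0.017 (-0.045 to 0.012). Likewise, *Hk2* was at -0.30 (-0.75 to 0.16) and *Aldoc* at 0.39 (-0.15 to 0.95) in that band. The median of all genes was 0.040 in cells with at least 5000 UMIs and 0.14 over all cells. Relative to it, *Ldhb*, *Pfkm* and *Aldoc* were at 0.40, 0.53 and 0.41 in these deep cells, against 0.24, 0.38 and 0.30 over all. *Pfkl*, *Pfkp* and *Hk2* were at -0.29, -0.33 and -0.38 in deep cells, against -0.42, -0.37 and -0.46 over all.

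**Figure D4:**
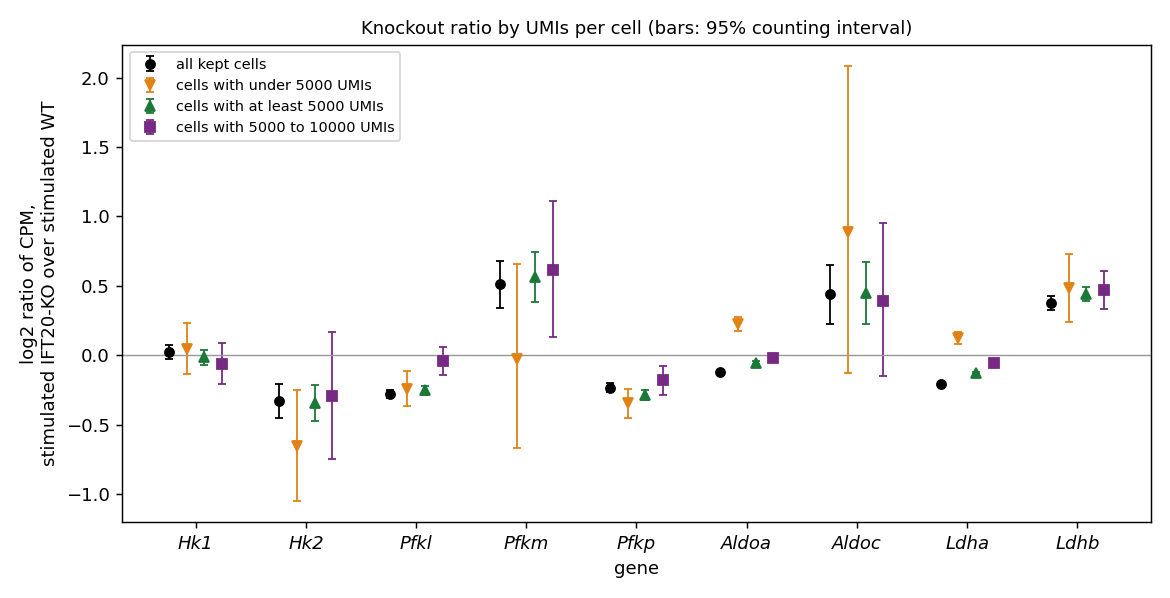
Log2 ratio of CPM in stimulated IFT20-KO over stimulated WT for 9 isoform genes, over all kept cells (black circles) and in cells with under 5000 (orange), at least 5000 (green) and 5000 to 10000 UMIs (purple), with 95% counting intervals. *Ldhb* lies between 0.38 and 0.48 in every class, while *Aldoa* and *Ldha* lie above 0 in cells with under 5000 UMIs and below it elsewhere. The line marks 0 and not the median of all genes. That median was 0.14 over all cells, and -0.031, 0.040 and 0.075 in the depth classes in the order given.

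The phosphofructokinase isoforms also divided along depth within a library. In stimulated WT, *Pfkl* made up 40.5% (38.2 to 42.8) of phosphofructokinase UMIs in the quartile of cells with the fewest UMIs and 49.96%, 51.5% and 52.2% in the next 3. In the knockout it was 41.3% and 41.5% in the lower pair of quartiles, and 50.9% and 51.9% in the upper pair. *Pfkp* was the major isoform in the shallow cells of both libraries and *Pfkl* in the deep ones. In unstimulated WT the *Pfkl* share had no such order, at 46.9%, 49.0%, 48.4% and 45.8%. In cells with at least 5000 UMIs, the *Pfkl* share was 51.6% in both stimulated libraries, a difference of -0.0092 points (-0.830 to 0.811).

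*Hk2* and *Ldhb* shares also differed among quartiles, mostly without a steady order. Over the 4 quartiles the *Hk2* share was 19.4%, 11.3%, 15.9% and 19.0% in stimulated WT and 11.8%, 14.3%, 11.4% and 14.7% in the knockout. The *Ldhb* share of stimulated WT was ordered with depth, at 3.01%, 2.93%, 2.34% and 2.11%. In the knockout the *Ldhb* share was 4.01%, 3.86%, 4.35% and 2.98%, above stimulated WT in each quartile. Quartiles of the same rank were not of equal depth, with median UMIs per cell of 1883.5 to 19668.5 in stimulated WT and 2122 to 14978.5 in the knockout.

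**Figure D5:**
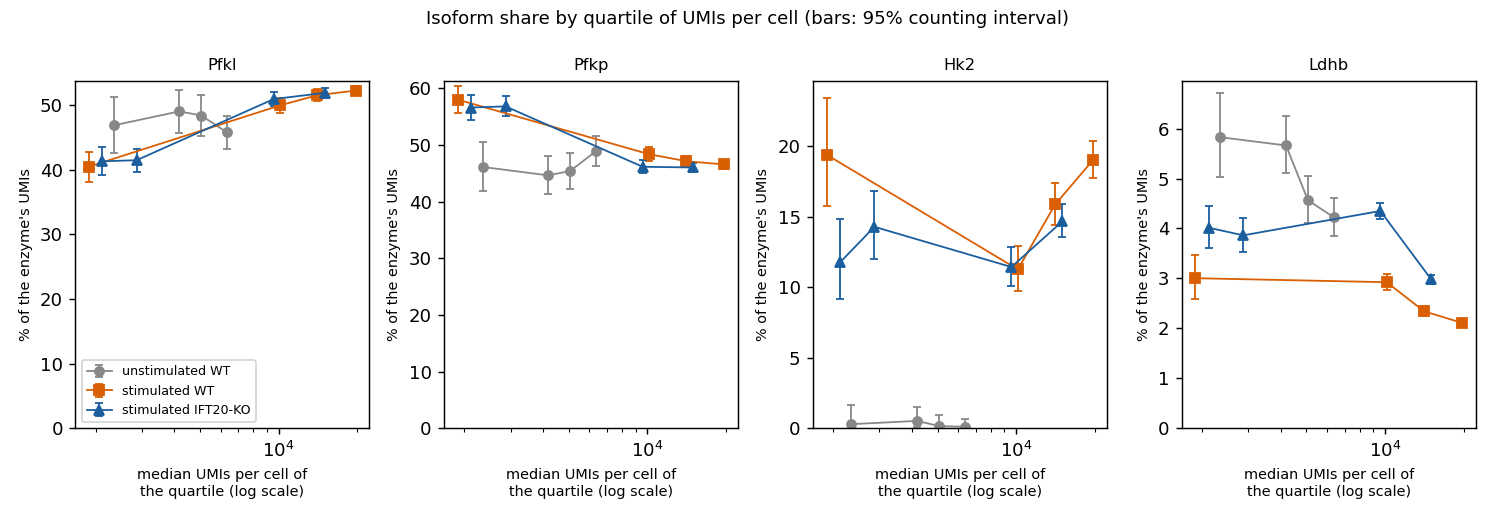
Share of an enzyme's UMIs given by *Pfkl*, *Pfkp*, *Hk2* and *Ldhb* in each quartile of UMIs per cell, plotted against the quartile's median UMIs per cell (log scale), with 95% counting intervals for the 3 libraries. In both stimulated libraries *Pfkl* lies near 41% in shallow cells and 49.96% to 52.2% in deep ones, with *Pfkp* the reverse, and the knockout lies above stimulated WT for *Ldhb*.

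Cells of the stimulated libraries with more transcripts of quiescent naïve cells had lower *Hk2* and higher *Pfkm* and *Ldhb* shares than the rest. Summed UMIs of *Il7r*, *Klf2* and *S1pr1*, genes of the survival and recirculation of naïve T cells, reached 0.05% of the UMIs in 1180 stimulated WT and 1245 knockout cells. Of the kept cells, 604 and 1119 lay close to this bound, between 0.04% and 0.0625%, so these are ranges of a continuous score, not cell types. In stimulated WT *Hk2* made up 6.34% (4.53 to 8.60) of hexokinase in them and 17.4% (16.5 to 18.3) in the rest. In the knockout the shares were 8.08% (5.69 to 11.1) and 13.8% (13.0 to 14.7).

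*Pfkm* made up 3.23% of phosphofructokinase in the cells with these transcripts and 1.24% in the rest of stimulated WT, and 3.91% against 2.20% in the knockout. *Ldhb* made up 3.25% against 2.29% of lactate dehydrogenase in WT and 4.87% against 3.40% in the knockout, so the higher *Ldhb* share of the knockout was present on both sides of the bound. *Aldoc* made up 0.276% against 0.166% of aldolase in WT and 0.687% against 0.233% in the knockout, and *Pfkp* 49.3% against 47.5% of phosphofructokinase in WT and 47.6% against 47.9% in the knockout. The cells with these transcripts were shallower, with median UMIs of 7615.5 against 12798 in WT and 2944 against 6205 in the knockout, and the part of depth in these differences was not tested.

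Seen by cell, *Ldha* was near-universal and *Hk2* sparse. At least 1 *Ldha* UMI was found in 88.0%, 95.6% and 96.5% of cells of the 3 libraries, and in 63.0%, 87.0% and 84.8% once each cell was thinned to 1400 UMIs and shallower cells (801, 421 and 0) were left out. *Hk2* was found in 6 unstimulated cells (0.0747%), in 11.1% of stimulated WT and in 6.05% of IFT20-KO cells. Thinned, its shares were 0.0415%, 1.47% and 1.31%, and the intervals of the stimulated libraries (1.23 to 1.73 and 1.13 to 1.51) overlapped. *Ldhb* was found in 5.34%, 7.00% and 8.76% of thinned cells, highest in the knockout, whereas at full depth stimulated WT was highest at 39.6% against 33.9%. The sort held no cell type that should lack glycolytic enzymes, so a background share from free RNA could not be read for these genes.

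Co-detection of isoforms in single cells after stimulation was common for *Pfkl* with *Pfkp* and far rarer for *Hk1* with *Hk2*. A pair cannot be seen more often than its rarer gene. In stimulated WT, *Pfkl* was found in 66.3% and *Pfkp* in 67.4% of cells, but *Hk1* in 43.5% and *Hk2* in 11.1%. Whether either pair occurred together more often than these rates give was not tested. *Pfkl* and *Pfkp* were both seen in 4.52% of unstimulated WT, 52.3% of stimulated WT and 31.8% of IFT20-KO cells at full depth. Among stimulated WT cells, 628 (6.34%) held UMIs of both *Hk1* and *Hk2* and 467 (4.72%) held *Hk2* alone. Both were seen in 2.72% of IFT20-KO cells. *Ldhb* without *Ldha* was seen in 52, 26 and 62 cells. These counts rise with UMIs per cell and with the level of each gene, and the libraries were not brought to equal depth for them.

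The rest of the pathway was read from a list of 31 genes, of which 21 had at least 10 UMIs in each comparison. With stimulation 19.3% of all genes were at least 2-fold higher and 23.0% at least 2-fold lower, with a median log2 ratio of -0.089. Of the 21 pathway genes, 9 were higher and 3 lower by that much, with a median of 0.90. The highest was *Slc16a3*, which encodes the lactate exporter MCT4, at 2.21 and 72.6 CPM (log2 ratio 5.04, interval 4.73 to 5.37). The 3 lower genes were *Pfkfb2*, *Pfkfb4* and, named after its values were seen, the glucose transporter gene *Slc2a3* (-1.35). The lowest was *Pfkfb2*, an enzyme that sets the level of a phosphofructokinase activator, with 45 and 29 UMIs (-2.29, interval -3.02 to -1.58). *Pfkfb4* of the same family was at -1.45, *Pfkfb1* at -0.43 (-0.90 to 0.055) and *Pfkfb3* at 0.18.

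In the knockout, 35.9% of all genes were at least 1.2-fold higher and 7.75% at least 1.2-fold lower, with a median of 0.14. Of the 21 pathway genes, 4 were higher and 3 lower by that much, with a median of -0.096. The higher ones were *Eno2*, *Slc2a3* (0.61), *Pfkfb1* (0.44) and *Pfkfb4* (0.43), and the lower ones *Slc16a3*, *Eno1* and *Tpi1* (-0.28), of which *Slc2a3* and *Tpi1* were named after their values were seen. *Slc16a3* was the lowest, at 46.8 CPM (-0.64, interval -0.69 to -0.58). *Eno2*, the neuronal enolase, was the highest at 1.48 (1.02 to 1.96), from 54 UMIs in stimulated WT and 137 in IFT20-KO. Its abundant relative *Eno1* was at 390, 373 and 284 CPM in the 3 libraries, so it was lower in the knockout (-0.39) and close to level with stimulation (-0.065), and *Eno3* was at 9.16, 27.4 and 26.1 CPM.

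Pyruvate kinase, phosphoglycerate kinase and phosphoglycerate mutase were each dominated by 1 gene. The *Pfkfb* family was not, with *Pfkfb3* at 10.1 and *Pfkfb4* at 7.54 CPM in unstimulated WT. *Pkm*, pyruvate kinase of muscle and growing cells, was at 478, 1756 and 1545 CPM and its liver relative *Pklr* at 0 UMIs. *Pgk1* (phosphoglycerate kinase) was at 161, 883 and 743 CPM and *Pgam1* (phosphoglycerate mutase) at 86.7, 654 and 580 CPM, while *Pgk2* had no UMI and *Pgam2* had 4 or fewer in any library. *Hkdc1* had no UMI, and *Ldhc* had at most 1 in any library. *Pgk1*, *Pgam1*, *Pkm* and *Eno1* were all below stimulated WT in the knockout, at log2 ratios of -0.25, -0.17, -0.18 and -0.39, like *Ldha* and *Aldoa*. Several of these genes have near-identical pseudogene copies, and their levels are uncertain to that extent. The ratios of these 4 genes were not split by depth.

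Genes outside the pathway came close to the isoforms in their pair of log2 ratios. Likeness was the distance between the stimulation and knockout ratios, over 3 libraries, among about 3435 genes that reached 50 CPM in some library. Nearest to *Hk2* were *Spry1*, *Pdcd1lg2* and *Lag3* (distances of 0.17 to 0.30). Nearest to *Pfkl* were *Timm10*, *Myc* and *Srgn* (0.019 to 0.084), and nearest to *Ldha* were *Ebna1bp2*, *Alyref* and *Aen* (0.017 to 0.029). *Ldhb* was closest to *Rasa1*, *Rrbp1* and *Cltc*, and *Aldoc* to *Msh6*, *Stmn1* and *Pdia3*. The stimulation intervals of *Hk2* (4.98 to 7.56) and *Aldoc* (0.54 to 1.39) were far wider than their distances, so counting error leaves their nearest genes unsettled. With only a pair of ratios per gene that share a library, many genes are close to any given one, so this is a description of these libraries.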

How the data were processed

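The authors deposited, per library, counts of UMIs per gene and barcode without normalization, made with Cell Ranger (version 3.1.0 in the file headers) against mm10 per the submitters' processing notes. The labels name a kit that reads the 5′ end of transcripts, and the study's methods a kit that reads the 3′ end, which bears on how pseudogene copies are counted. Barcodes with over 200 genes and a mitochondrial share below 15% were kept, no doublet caller was run, and UMIs were summed per library and scaled to CPM. Exact Poisson (levels), exact binomial (ratios), Clopper-Pearson (shares) and Newcombe (share differences) intervals were used, with a floor of 3 counts for genes at 0, and genes needed 10 UMIs over both libraries for a ratio. The genes named were the 10 isoform genes, the highest and lowest pathway genes of each comparison, the other isoform families, 3 nearest genes for each of *Hk2*, *Pfkl*, *Aldoc*, *Ldha* and *Ldhb*, and *Ift20*. The members and lists were chosen with earlier results of these data known. Alternatives were other cell filters, thinning to 1400 UMIs, per-cell means, median-ratio scaling, UMIs per cell, other minimums (1 and 200 UMIs) and unlisted isoforms in the denominators, and, chosen after seeing the data, cells of 5000 to 10000, of at least and of under 5000 UMIs. The calculation was tested on simulated data. Python 3.11.15, numpy 2.4.6, scipy 1.17.1, pandas 2.3.3 and matplotlib 3.10.9 were used.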

Additional observations from a re-analysis of the deposited data

How the results depend on the processing

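No paired analysis was possible because each group was 1 library and no result comes from a test. Of the share differences (percentage points) of *Hk2*, *Pfkl*, *Aldoc* and *Ldhb*, those of *Pfkl* changed direction. Thinned to 1400 UMIs, they were 14.7 (*Hk2*), -0.987 (*Pfkl*, reversed) and -0.277 (*Aldoc*) for stimulation, and -1.55 (*Hk2*), -2.71 (*Pfkl*), 0.150 (*Aldoc*) and 1.34 (*Ldhb*) for the knockout. In cells of 5000 to 10000 UMIs, chosen after seeing the data, they were 10.4 (*Hk2*) and -0.871 (*Ldhb*) for stimulation, and -1.42 (*Hk2*), 1.67 (*Pfkl*, reversed) and 1.40 (*Ldhb*) for the knockout. In cells of at least 5000 UMIs, also added, they were -1.94 (*Ldhb*, stimulation) and -0.0092 (*Pfkl*, knockout). In cells of under 5000 UMIs, which were not matched in depth between the WT libraries, they included -8.77 (*Pfkl*, stimulation, reversed). As means over cells they were 0.862 (*Pfkl*, stimulation), 0.122 (*Aldoc*, knockout) and 1.22 (*Ldhb*, knockout). In UMIs per cell, log2 ratios reversed to 1.17 for *Hk1* and 0.83 for *Pfkm* with stimulation. In the knockout they reversed to -0.12, -0.19 and -0.25 for *Pfkm*, *Aldoc* and *Ldhb*. That setting leaves depth in, and depth cannot be told apart from RNA per cell. Counts of all genes past the fold depended on minimum and scaling. Higher with stimulation were 7782 (UMIs per cell). Lower with stimulation were 5462 and 1906 (minimum of 1 and 200 UMIs) and 851 (UMIs per cell). Higher in the knockout were 2998 (median-ratio scaling) and 728 (UMIs per cell). Lower in the knockout were 2593 and 385 (minimum of 1 and 200 UMIs), 2387 (median-ratio scaling) and 9937 (UMIs per cell). The cause was not tested.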

Other observations

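Cells with a UMI of *Foxp3*, the transcription factor of regulatory T cells, numbered 343, 176 and 318 before stimulation, after it in WT and after it in the knockout. In unstimulated WT, *Ldhb* made up 6.80% (5.50 to 8.29) of lactate dehydrogenase UMIs in them and 4.73% (4.48 to 4.99) in the other cells, at like depth (median UMIs of 4583 and 4627.5). In stimulated WT the shares were 2.38% (1.96 to 2.87) and 2.34% (2.28 to 2.40). Summed phosphofructokinase was lower in the *Foxp3* cells of stimulated WT, at 235 against 321 CPM. So were summed aldolase (1308 against 1660 CPM) and lactate dehydrogenase (1976 against 2288 CPM). Hexokinase was at 77.0 against 67.2 CPM, with overlapping intervals, and *Hk2* made up 14.3% (9.46 to 20.4) against 16.6% (15.8 to 17.5) of it.

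Cells in which 6 cell cycle genes made up at least 0.1% of UMIs numbered 195 in stimulated WT and 403 in stimulated IFT20-KO, with 158 and 317 cells close to that bound, between 0.08% and 0.125%. Summed aldolase in them was 1216 CPM in WT and 1016 CPM in the knockout, against 1660 and 1531 CPM in the other cells. Their median UMIs per cell were lower, at 2802 against 12217.5 in WT and 2920 against 5885 in the knockout, and the part of depth in these differences was not tested.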
